A study of Homo sapiens with 6 samples.

Results

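Cell death genes of the BCL2 family were read in MCF10A cells, an established, non-tumorigenic human breast epithelial line, after transfection with miR-221/222 (the mimic group) or with a control microRNA (the control group). The 10 genes are a list of gene symbols, and their probe sets were found by symbol: the anti-apoptotic genes BCL2, BCL2L1 and MCL1, the BH3-only genes BCL2L11, BMF, BBC3, PMAIP1, BIK and BID, and APAF1. BMF, BCL2L11, BBC3 and APAF1 have been reported as targets of these microRNAs. Together they were measured by 32 of the 54613 probe sets that were tested, each a set of short probes on a single-colour Affymetrix array that yields 1 log2 intensity per array. Of the 10 genes, 9 have probe sets of their own, among 19775 such genes in all, and BBC3 has 1 probe set, which is annotated to MIR3190, MIR3191 and BBC3 together and cannot separate them. Each group holds 3 biological replicates, per the labels, so 6 arrays in all. The control group was transfected too. No label states the dose, the sampling time or what the control microRNA is.

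Proteins of the BCL2 family decide whether the outer mitochondrial membrane is opened, the step that commits most cells to apoptosis. The effectors BAX and BAK1 form the pores, anti-apoptotic members such as BCL2, BCL-XL (encoded by BCL2L1) and MCL1 hold them in check, and BH3-only proteins either activate the effectors or occupy the anti-apoptotic members. Cytochrome c that leaves the mitochondria then joins APAF1 and caspase-9 in the apoptosome, which starts the caspase cascade. In mammary epithelial cells, BIM (encoded by BCL2L11) and BMF are known for their part in the death of cells that lose contact with the matrix. Many of these proteins are controlled by phosphorylation, cleavage or degradation, which an RNA array does not measure.

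The sequences of the 2 delivered microRNAs are shown because their seed, the stretch from base 2 to base 8 that does most of the pairing with messenger RNAs, defines which transcripts they can share as targets. Sequences are the mature 3p arms in the RefSeq tables (GRCh38.p14), 5′ to 3′, with the seed in capitals. The labels do not say which arm the mimic copied.
hsa-miR-221-3p: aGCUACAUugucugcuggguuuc
hsa-miR-222-3p: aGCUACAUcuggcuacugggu
The genes lie close together on the minus strand, at chrX:45746180-45746202 for miR-221-3p and chrX:45747036-45747056 for miR-222-3p. Both have the seed GCUACAU, and the first 8 bases of the 2 sequences are identical. Among 2370 human mature microRNA names in the table, no other had this seed.

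The clearest rises in the family were those of PMAIP1 and BMF, and the clearest falls those of BID and BCL2L1. At the brightest probe set of each gene, PMAIP1, which encodes the BH3-only protein NOXA, was 2.0-fold higher in the mimic arrays and BMF 1.53-fold higher. BID was 1.5-fold and BCL2L1 1.45-fold higher in the control arrays. BIK fell slightly. MCL1, BCL2, BCL2L11, BBC3 and APAF1 did not pass at that probe set. By limma with Benjamini-Hochberg adjustment over all probe sets (adjusted p under 0.05), 2 of the 10 genes were therefore higher and 3 lower, against 30.4% of all 19775 genes called in either direction (14.1% higher and 16.3% lower). By probe set, 14 of 32 were called, 5 higher and 9 lower, against 24.8% of all probe sets (11.6% higher and 13.1% lower). The 3 mimic arrays lay wholly above or wholly below the 3 control arrays at 9 of the 10 genes (5 above, 4 below), against 45.6% of all genes (23.7% above, 21.9% below), and at 19 of the 32 probe sets (9 above, 10 below), against 39.2% of all probe sets (20.9% above, 18.2% below). Probe sets of 1 gene share their transcript, so the 14 called ones are not independent. The brightest probe sets of the 10 genes lay from the 53.1 (BCL2) to the 99.3 (MCL1) percentile of signal among all probe sets. The shares over all genes and all probe sets include dim ones, and signal was not matched. The median change of the 10 genes was 0.04 and their median absolute change 0.21 on the log2 scale, beside 0.03 and 0.12 over all genes.

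**Figure D1:**
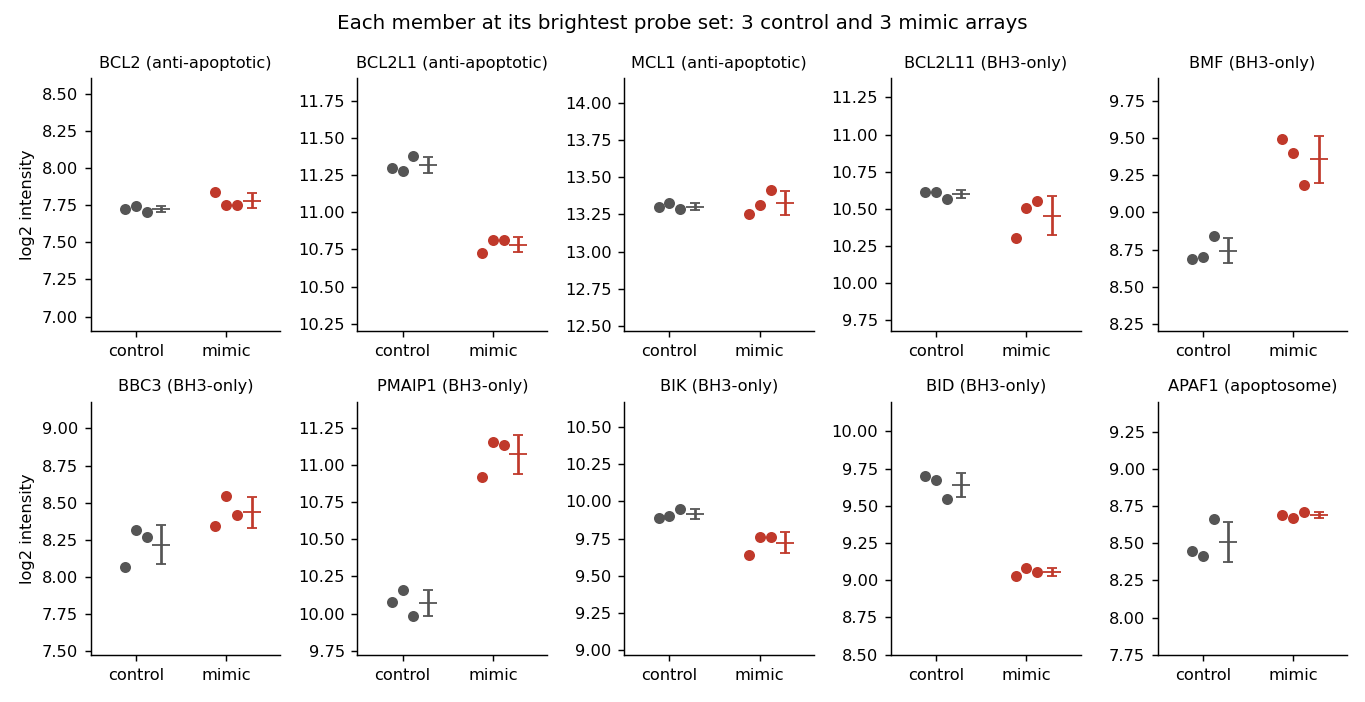
Log2 intensity (vertical axis, 1.7 log2 units in every panel) of the 10 genes at their brightest probe set in the 3 control arrays (grey) and the 3 mimic arrays (red); points are arrays, and the bar beside them is the mean ± SD. The groups lie farthest apart for PMAIP1 (10.07 against 11.07), BMF, BID and BCL2L1, while MCL1 overlaps.

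Of the anti-apoptotic genes, BCL2L1 fell. Its brightest probe set read 11.30, 11.27 and 11.38 in the control arrays and 10.72, 10.81 and 10.81 in the mimic arrays. All 3 mimic arrays lay below all 3 control arrays, and the change was -0.54 ± 0.06 (SE; limma adjusted p = 7.64e-05). Among all genes, 6.3% had a lower change. Of the other BCL2L1 probe sets, 215037_s_at changed by -0.66 ± 0.07 and 206665_s_at by -0.59 ± 0.08 (SE), both past the threshold. The fourth, 231228_at, is dimmer and read 8.07, 8.08 and 7.55 in the mimic arrays against 7.80, 7.83 and 8.01 in the control arrays. There the groups overlapped, with mimic replicate 3 lowest, and the change of 0.02 ± 0.13 (SE) did not pass.

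MCL1, whose short-lived protein protects many epithelial cells, was not called at its 3 bright probe sets. The brightest read 13.25, 13.31 and 13.41 in the mimic arrays and 13.30, 13.33 and 13.28 in the control arrays, so the groups overlapped, and the change was 0.02 ± 0.06 (SE; limma adjusted p = 0.827). The other bright ones changed by 0.09 ± 0.06 (200798_x_at, whose suffix marks probes that can bind several transcripts) and 0.06 ± 0.06 (200796_s_at). Of the remaining 3 probe sets, 214056_at varied most within the groups (SD 0.52 for the mimic and 0.36 for the control arrays, n = 3 each), with mimic replicate 3 at 9.29 and the other mimic arrays at 8.35 and 8.43. Probe set 227175_at rose by 0.29 ± 0.08 (SE; limma adjusted p = 0.0269), at a mean signal in the lowest 30.8% of all probe sets. That call was lost without mimic replicate 3 (change 0.21, adjusted p = 0.0809, limma), without control replicate 2 (0.23, adjusted p = 0.114) and after quantile normalization of the arrays again (0.25, adjusted p = 0.0583), and with the trend of change on signal removed (0.24, adjusted p = 0.0653).

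BCL2, the founding member of the family, lay near or below the array medians of 7.59 to 7.66 on all 4 of its probe sets, so it is dim here, and without detection calls it is not known whether its signal lies above background. The brightest read 7.84, 7.75 and 7.75 in the mimic arrays and 7.72, 7.74 and 7.70 in the control arrays, a change of 0.06 ± 0.06 (SE) that did not pass although the groups did not overlap. The 2 dimmest probe sets fell, with changes of -0.25 ± 0.07 at 203685_at and -0.21 ± 0.06 at 207005_s_at (SE; limma adjusted p = 0.0234 and 0.0374). The first call was lost without mimic replicate 2 (change -0.21), control replicate 1 (-0.27) or control replicate 3 (-0.21), and the second without any 1 array except mimic replicate 3, with changes from -0.24 to -0.18, and with eBayes run with trend and robust (adjusted p = 0.0586, limma).

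Among the BH3-only genes that bind the effectors directly, BID fell and BCL2L11 was mostly not called. BID, whose protein is cut by caspase-8 and so links death receptors to mitochondria, read 9.70, 9.67 and 9.55 in the control arrays and 9.03, 9.08 and 9.06 in the mimic arrays at 227143_s_at, its brightest probe set. The change there was -0.58 ± 0.06 (SE; limma adjusted p = 4.57e-05), and 5.5% of all genes had a lower change. The other BID probe sets fell by more. At 211725_s_at BID read 9.62, 9.69 and 9.48 in the control arrays against 8.26, 8.42 and 8.51 in the mimic arrays, a change of -1.20 ± 0.08 (SE), or 2.30-fold higher in the control. At 204493_at the change was -1.13 ± 0.07 (SE; limma adjusted p = 7.53e-07). All 3 mimic arrays lay below all control arrays at each probe set.

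BID thus differed in the size of its fall by probe set. The 211725_s_at value minus the 227143_s_at value was -0.77, -0.66 and -0.55 in the mimic arrays and -0.08, 0.01 and -0.06 in the control arrays. The gap was wider in every mimic array, with a difference of -0.62 and an exact two-sided permutation p of 0.10, the smallest that 3 arrays against 3 can give. Of 6 such pairs, each other probe set of BID, PMAIP1 and BCL2L1 against the brightest, 4 had this p (0.15 after adjustment over the 6): both of BID, that of PMAIP1 (0.28 on the log2 scale) and 231228_at of BCL2L1 (0.56). Which transcripts each probe set binds was not analysed here.

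BCL2L11, reported as a target of miR-221 and miR-222, had 7 probe sets, of which 1 rose and 0 fell. Its brightest, 225606_at, read 10.30, 10.51 and 10.56 in the mimic arrays and 10.61, 10.62 and 10.57 in the control arrays. The mimic arrays lay below, replicate 3 by a narrow margin and replicate 1 farthest, and the change of -0.14 ± 0.07 (SE; limma adjusted p = 0.201) did not pass. Without mimic replicate 1 it was -0.07 (adjusted p = 0.471, limma), and after quantile normalization again -0.08. The next 3 by signal changed by -0.04 ± 0.07, 0.12 ± 0.07 and 0.06 ± 0.07 (SE) and did not pass. The probe set that rose, 1555372_at, read 8.12, 8.34 and 8.51 in the mimic arrays and 7.95, 8.0 and 8.14 in the control arrays, with overlapping groups and a change of 0.29 ± 0.10 (SE; limma adjusted p = 0.0443). Its call was lost without mimic replicate 2 or 3 or control replicate 1 or 2 (changes from 0.20 to 0.29), and after quantile normalization again (0.28) or subtraction of the array medians (0.27) and removal of the trend of change on signal (0.25). The dimmest, 208536_s_at, changed by -0.24 ± 0.12 (SE) and was not called. It passed without mimic replicate 2 (-0.36, adjusted p = 0.0452, limma), while without mimic replicate 1 the change was -0.09 (adjusted p = 0.529) and with array weights -0.07 (adjusted p = 0.621).

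Of the BH3-only genes whose proteins mainly occupy anti-apoptotic members, PMAIP1 rose most. Its product NOXA binds MCL1 and promotes its degradation. PMAIP1 read 10.92, 11.16 and 11.14 in the mimic arrays and 10.08, 10.16 and 9.99 in the control arrays at 204285_s_at, a change of 1.0 ± 0.08 (SE; limma adjusted p = 3.79e-06). At 204286_s_at it read 10.04, 10.10 and 10.23 against 9.01, 8.67 and 8.85, and the change was 1.28 ± 0.09 (SE), 2.42-fold higher in the mimic. The lowest mimic array lay well above the highest control array at both. The change of PMAIP1 at the brightest probe set was larger than that of 99% of all genes.

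BMF, whose protein is held at the actin cytoskeleton until it is released, is a reported target of the delivered microRNAs, and its messenger RNA rose. It read 9.49, 9.40 and 9.18 in the mimic arrays and 8.69, 8.70 and 8.84 in the control arrays on its single probe set. The groups did not overlap, and the change was 0.62 ± 0.09 (SE; limma adjusted p = 0.000258), larger than that of 97.1% of all genes. The array values measure messenger RNA at a sampling time that no label states, and the level of the BMF protein was not measured.

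The BBC3 probe set, shared with 2 microRNA genes, read 8.34, 8.55 and 8.42 in the mimic arrays and 8.07, 8.32 and 8.27 in the control arrays. BBC3 encodes PUMA, a BH3-only protein that binds all the main anti-apoptotic members. All 3 mimic values exceeded the control values by a narrow margin, and the change of 0.22 ± 0.08 (SE; limma adjusted p = 0.0803) did not pass. Without control replicate 1 the change was 0.14. It passed with array weights (0.31, adjusted p = 0.00601, limma). BIK, a BH3-only protein of the endoplasmic reticulum, read 9.64, 9.76 and 9.76 in the mimic arrays and 9.89, 9.90 and 9.95 in the control arrays. BIK fell by 0.19 ± 0.06 (SE; limma adjusted p = 0.0450), which is just inside the threshold. The call was lost when any 1 of the 6 arrays was left out, with changes from -0.22 to -0.15 and adjusted p from 0.0552 to 0.113 (limma). It was also lost after quantile normalization again (-0.12, adjusted p = 0.128) and with the trend of change on signal removed (-0.17, adjusted p = 0.0741, limma).

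APAF1, the scaffold of the apoptosome and a reported target, was called on 0 of its 3 probe sets by limma; 1 of them had an unadjusted p under 0.05, and a call appeared at that probe set under the settings named next. The brightest read 8.69, 8.67 and 8.71 in the mimic arrays and 8.45, 8.42 and 8.66 in the control arrays, a change of 0.18 ± 0.07 (SE; limma adjusted p = 0.112), or 0.04 averaged over the 3. Control replicate 3 lay near the mimic arrays. Without it the change was 0.26 and passed (adjusted p = 0.0210, limma), as it did with array weights (0.18, adjusted p = 0.0435). The other APAF1 probe sets changed by -0.07 ± 0.08 and 0.01 ± 0.07 (SE).

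Of the 4 reported targets, with all arrays in the fit, no probe set was called lower: of their 12 probe sets, 2 were called higher (BMF, and BCL2L11 at 1555372_at) and 0 lower by limma, against 11.6% and 13.1% of all probe sets, so that both counts are near those shares. None of the estimates below 0 among them had an unadjusted p under 0.05. Ordered by change at the brightest probe set, from the highest to the lowest, the 10 genes were PMAIP1, BMF, BBC3, APAF1, BCL2, MCL1, BCL2L11, BIK, BCL2L1 and BID. Neighbours from BBC3 to APAF1 (0.22 and 0.18), from BCL2 to MCL1 (0.06 and 0.02), from BCL2L11 to BIK (-0.14 and -0.19) and from BCL2L1 to BID (-0.54 and -0.58) differed by less than 1 standard error of either change. Of the 14 called probe sets, the 9 of PMAIP1, BMF, BID and BCL2L1 stayed called under every alternative setting run except a minimum of 1.5-fold, which the brightest probe sets of BID and BCL2L1 did not reach.

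**Figure D2:**
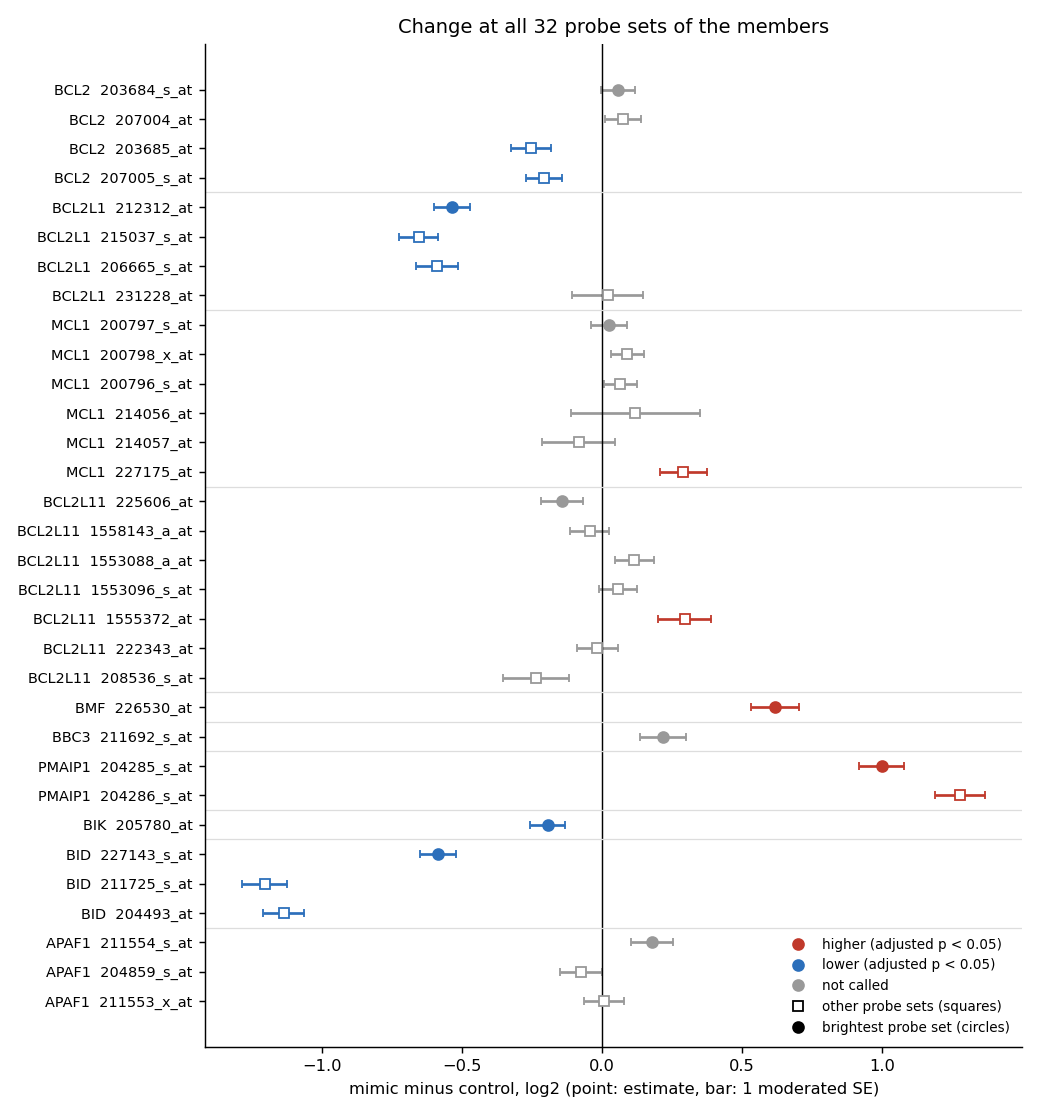
Change of each of the 32 probe sets (mimic minus control, log2, horizontal axis) with 1 moderated standard error, grouped by gene on the vertical axis; circles are the brightest probe set of a gene, open squares the others, red higher, blue lower and grey not called. All 3 BID probe sets and 3 of 4 BCL2L1 probe sets lie well below 0, both PMAIP1 probe sets lie near or above 1, and the probe sets of MCL1, BCL2L11 and APAF1 spread around 0.

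**Figure D3:**
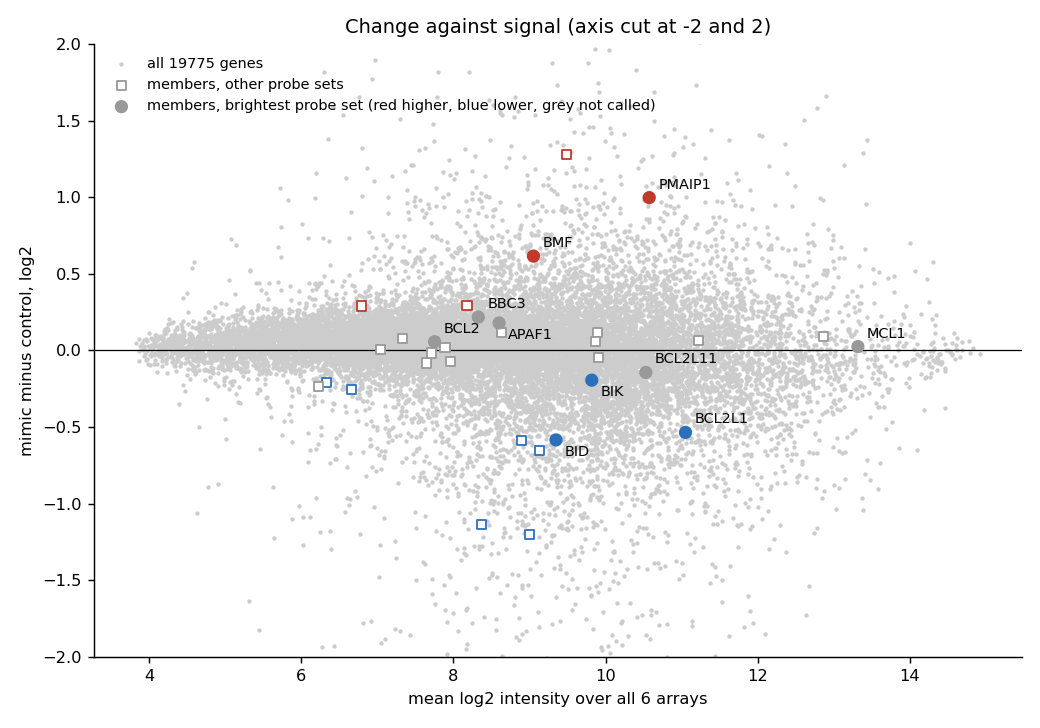
Change (mimic minus control, log2, vertical axis from -2 to 2, which leaves out 99 genes) against mean log2 intensity over all 6 arrays for 19775 genes (light grey) and for the probe sets of the 10 genes (circles brightest, squares others; red higher, blue lower, grey not called). PMAIP1, BMF, BID and BCL2L1 lie at the edge of or outside the dense band of genes, and the BCL2 probe sets lie among dim signals.

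Of the 14 other BCL2 family genes, 3 rose and 1 fell, and the median change was 0.04. The share called (28.6%) was near the 30.4% of all genes. The anti-apoptotic relative BCL2L2, which encodes BCL-W, read 9.98, 10.13 and 10.16 after the mimic and 9.69, 9.70 and 9.66 after the control, and rose on both its probe sets (1.33-fold at the brightest). The mitochondrial proteins' genes BNIP3 (1.41-fold higher) and BCL2L13 (1.32-fold higher at its brightest, called on 2 of 5 probe sets) rose, and BCL2L12 fell by 0.62. Averaged over its probe sets, BCL2L13 changed by 0.16 (adjusted p = 0.0265, limma). The pore-forming effectors did not pass: BAX changed by -0.16 ± 0.07, BAK1 by -0.14 ± 0.06 and their relative BOK by 0.04 ± 0.07 (SE). BAD (0.15), the anti-apoptotic BCL2A1 (0.09) and HRK (-0.21 ± 0.08; limma adjusted p = 0.0677) did not pass either. HRK fell on 2 of its 5 probe sets. It was called lower under 7 alternatives, among them the average of its probe sets (-0.16, adjusted p = 0.0358, limma) and subtraction of the array medians (-0.24, adjusted p = 0.0289, limma).

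Of 15 measured genes of the apoptosome, the caspases and their inhibitors, 6 rose and 5 fell (73.3% called, against 30.4% of all genes), with a median change of 0.12. The share over all genes includes dim genes, and signal was not matched for this list or the others. CYCS, which encodes cytochrome c, fell: it read 12.95, 12.98 and 12.85 in the control arrays and 12.06, 12.12 and 12.11 in the mimic arrays, a change of -0.83 ± 0.06 (SE; limma adjusted p = 2.61e-06), or -0.53 averaged over its probe sets. BIRC5, an inhibitor of apoptosis and a component of dividing chromosomes, was 1.90-fold higher in the control, the mitochondrial nuclease gene ENDOG 1.41-fold and DFFA, which encodes the inhibitor of the caspase-activated nuclease, 1.32-fold. XIAP, the direct caspase inhibitor, rose by 0.35 ± 0.07 (SE) and was called at 6 of 7 probe sets. CASP9, the initiator caspase that APAF1 activates, rose by 0.26 ± 0.07 (SE; limma adjusted p = 0.0179) and was called at 1 of 3 probe sets. That call was lost without mimic replicate 2 (change 0.22), control replicate 2 (0.24) or control replicate 3 (0.24), and at its brightest probe set without the suffix s_at the change was 0.08.

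Of 13 measured death receptor genes, 5 fell and 3 rose (61.5% called, against 30.4% of all genes), with a median change of -0.17. TNFSF10, which encodes the ligand TRAIL, fell by 0.80, and each of its 3 probe sets was called lower. The receptor genes TNFRSF1A and TNFRSF10B fell by 0.55 and 0.46 (for TNFRSF10B, -0.30 averaged over its probe sets), and TRADD, an adaptor of the TNF receptor, rose by 0.42. Of 10 genes whose products regulate transcription of BH3-only genes, 5 rose and 1 fell (60.0% called, against 30.4% of all genes, 14.1% higher and 16.3% lower), with a median change of 0.20. FOXO3, an activator of BCL2L11 and BBC3 in several cell types, was 1.75-fold higher in the mimic, the glucocorticoid receptor gene NR3C1 1.61-fold and DDIT3, which encodes the stress factor CHOP, 1.6-fold. MYC, a growth regulator that also sensitises cells to apoptosis, fell by 1.41 ± 0.07 (SE), the one fall in the list.

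Of 10 genes for binding partners and degradation of BIM, BMF and MCL1, 2 rose and 3 fell (50% called, against 30.4% of all genes), with a median of 0.01. The dynein light chains that hold BIM and BMF at the cytoskeleton moved in opposite directions: DYNLL2, the partner of BMF, rose by 0.49 ± 0.07 at its brightest, the one called of 3 probe sets (0.20 averaged over them), and DYNLL1, the partner of BIM, fell by 0.23 ± 0.06 (SE; limma adjusted p = 0.0158). The DYNLL1 call was lost without mimic replicate 2 (change -0.23), control replicate 1 (-0.23) or control replicate 2 (-0.22), and with the trend of change on signal removed (-0.18, adjusted p = 0.0533, limma). TRIM2, which encodes a ubiquitin ligase for BIM, fell by 0.73 at its brightest probe set and was called lower on 4 of 6. The average over its probe sets changed by -0.31, and the brightest without the suffix s_at changed by 0.10 and did not pass. The kinase gene MAPK3, whose product phosphorylates BIM, rose by 0.35. BTRC fell by 0.27 at its brightest, the one called of 5 probe sets, and the change was -0.03 with all its probe sets averaged.

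**Figure D4:**
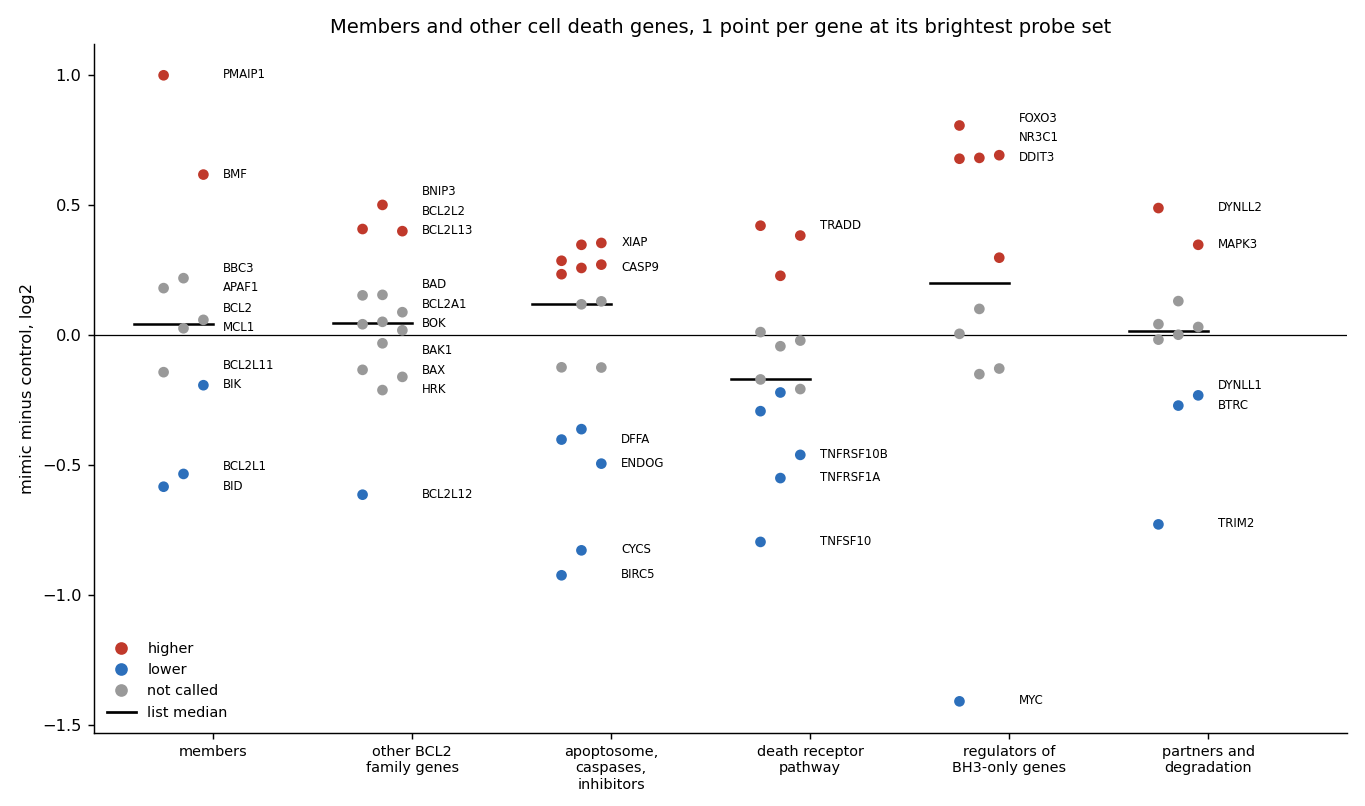
Change (mimic minus control, log2, vertical axis) of the 10 genes and of 5 lists of other cell death genes, 1 point per gene at its brightest probe set, red higher, blue lower and grey not called; the black line is the median of a list. PMAIP1 (1.0) lies highest and MYC (-1.41) lowest, and every list holds genes on both sides of 0.

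Promoter windows of 300 bases (250 before to 50 after a start site, RefSeq, GRCh38.p14) were searched on both strands for 7 motifs of FOXO, ATF and CREB, CEBP-ATF, MYC, AP-1 and E2F factors. The table held 14 windows for 8 of the 10 genes, without BIK and MCL1. The FOXO core TGTTTAC was in 1 of these windows, that of BCL2L11, and in 3.42% of all 35116 windows. The E-box CACGTG, which MYC binds, was in 3 windows (2 overlapping windows of BID and 1 of BBC3) and in 7.26% of all. The AP-1 motif TGANTCA was in 1 (BBC3) and in 7.71% of all. The other motifs, TGACGTCA, TGATGNAAT, TTTGGCGC and TTTCCCGC, were in 0 of the 14 windows and in 1.85%, 0.991%, 0.652% and 1.63% of all. The motifs do not overlap one another in these windows. A match is a run of letters and does not show that a factor binds. Whether FOXO3 acts on BCL2L11 in these cells was not tested. The BCL2L11 match, the only FOXO match in these windows, is shown as an example. The stretch covers chr2:111120664-111120763 on the plus strand, from base -250 to base -151 before the start site, with the match, on the opposite strand and beginning at base -223, in capitals.
BCL2L11: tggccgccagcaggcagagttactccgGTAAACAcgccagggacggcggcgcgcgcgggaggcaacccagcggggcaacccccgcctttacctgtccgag

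The normalized arrays had medians from 7.59 to 7.66. Across probe sets, r ran from 0.9953 to 0.998 between arrays of 1 group and from 0.9821 to 0.9858 between mimic and control arrays. Probe sets are not independent replicates. The MCF10A label was checked against markers: all 5 measured basal mammary markers and all 4 epithelial markers lay above the array median on every array. The summed basal signal was lower in the mimic arrays (14.0 to 14.12 on the log2 scale) than in the control arrays (15.13 to 15.21), as was the epithelial one (12.7 to 12.83 against 13.55 to 13.62). Of the 5 basal markers 4 fell and 1 rose (LAMB3, by 0.46), and all 4 epithelial markers fell. Of 5 fibroblast markers 1 rose (DCN) and 2 fell, and their sum was higher in the mimic arrays (13.86 to 13.94 against 12.72 to 12.81). Of the 5, 4 lay above the array median on every array. The summed signal of the 4 endothelial markers (10.14 to 10.18 against 10.49 to 10.64) was lower, with KDR falling, as was that of the 4 blood cell markers (10.22 to 10.31 against 10.72 to 10.75), with CD14 falling and ITGAM rising. Of the 4 endothelial markers 3, and of the 4 blood cell markers 2, also lay above the array median on every array. PTPRC of blood cells (7.16 and 7.07) lay below the array medians in both groups, as did CDH5 of endothelium (5.84 and 5.81). A place above the array median therefore does not by itself tell these cell types apart. The 3′ minus 5′ signal of the GAPDH control probe sets, a sign of RNA integrity, was 0.02 to 0.04 after the mimic and -0.05 to 0.02 after the control. These groups did not overlap, by a narrow margin (lowest mimic array 0.0241, highest control array 0.0234). The exact two-sided permutation p was 0.10, the smallest that 3 arrays against 3 can give. The ACTB groups overlapped (exact permutation p = 0.30). The part of these differences in the results on the BCL2 family was not tested. In such bulk RNA, a change in the mix of cells and a change in RNA per cell cannot be told apart.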

How the data were processed

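The deposited values are log2 intensities per probe set, which the authors normalized across arrays with RMA (background subtraction, normalization, probe set summary), per the submitters' processing notes; no version or setting is named. RMA makes arrays alike, so a change in total RNA per cell would not show, and dim differences are compressed. Of 54675 probe sets, 62 controls were left out. Symbols came from the platform annotation: 41091 tested probe sets had 1 symbol, 1801 several and 11721 none. A gene's value is that of its brightest probe set (highest mean of the 6 arrays). Mimic was compared with control by limma 3.58.1 (lmFit, eBayes) in R 4.3.3, with Benjamini-Hochberg adjustment over 54613 probe sets and a threshold of 0.05. SE is the moderated standard error of a change, and a fold is the antilog of the log2 change.

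The members and lists were chosen with earlier results of these data known. The text names all 10 members, up to 4 called genes of each list with the largest change, and 15 genes set by name, of which those measured are given. No list was tested as a set. The fit was tested on simulated data (54613 probe sets, 200 changed, independent normal noise). It recovered 65% of changes of 0.5 and 99% of changes of 1 (log2), and false calls made up 2.38% of the calls. In the real data 24.8% of probe sets were called, so the adjustment was less strict there. The simulated shares therefore show that the fit runs correctly and do not give the recovery or false calls of the real comparison. Alternatives were the 40% dimmest probe sets left out, quantile normalization again, array medians subtracted, eBayes with trend and robust, array weights, a replicate block, each array left out, other probe sets per gene and other thresholds. Figures were drawn with matplotlib 3.10.9.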

Additional observations from a re-analysis of the deposited data

How the results depend on the processing

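Of 423 values of the member probe sets under alternatives (other thresholds apart), 364 kept direction and side of the threshold; of 412 values of the other named genes, 389 did. Removing the loess trend of the change on the signal (span 0.3) was chosen after seeing the data. Called member probe sets numbered 5 higher and 9 lower. The 5 became 3 after quantile normalization, with the intensity trend removed, at an adjusted p under 0.01 and with a 1.5-fold minimum, and lay between 3 and 6 when each array was left out; the 9 became 4 with the 1.5-fold minimum and 6 to 8 without single arrays. Called member genes (2 higher, 3 lower) became 4 higher with array weights and 0 lower with the 1.5-fold minimum, which BID at 1.4995-fold just missed; without single arrays 2 to 3 were higher and 2 lower. Over all probe sets, 6343 were higher and 7180 lower. Array weights gave 9576 higher, an adjusted p under 0.01 gave 3828 higher, and the 1.5-fold minimum gave 1346 higher and 2244 lower, the last 2 settings by construction fewer; the cause of the first was not tested. Without single arrays these counts ran from 4451 to 6700 and from 5805 to 7241. Averaging the probe sets of each gene, which leaves out BBC3, meant that 2 other BCL2 family genes and 2 regulators fell, in place of 1 and 1.

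Among the results and alternatives run, signs turned for changes that were not called, and for TRIM2 (0.10 at its brightest probe set without x_at or s_at). Averaging put BCL2 at -0.0824 and BCL2L11 at 0.0036. With array medians subtracted, MCL1 was at -0.0045, BCL2L1 231228_at at -0.0092 and APAF1 211553_x_at at -0.0215. Quantile normalization gave -0.0306 for APAF1 211553_x_at and 0.0324 for BCL2L11 1558143_a_at; array weights gave -0.0111 and 0.0152 for these and -0.0653 for MCL1 214056_at. The trend removal gave -0.0269 for BCL2L1 231228_at and -0.0438 for APAF1 211553_x_at. Without single arrays, the changes ran from -0.0689 to 0.193 for BCL2L1 231228_at, from -0.0185 to 0.0616 for MCL1, from -0.181 to 0.314 for MCL1 214056_at, from -0.192 to 0.0818 for MCL1 214057_at, from -0.082 to 0.0483 for BCL2L11 222343_at, from -0.133 to 0.0002 for APAF1 204859_s_at, from -0.033 to 0.0674 for APAF1 211553_x_at and from -0.0092 to 0.0761 for BOK.

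Whether arrays were paired by replicate number could not be judged from the values. Deviations of same-numbered arrays from their group means correlated at -0.11, 0.08 and 0.08, beside -0.19 to 0.12 for arrays of unlike numbers. Deviations from a mean of 3 arrays sum to 0, so these values cannot show whether same-numbered arrays were handled together. With the replicate number as a block, 6 member probe sets were higher and 8 lower; BBC3 passed (0.22, adjusted p = 0.0425, limma) and BIK did not (-0.19, adjusted p = 0.0656, limma). No detection calls were used, so what lies above background is not known, and 3 arrays per group limit the precision.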
